A study of Hordeum vulgare with 4 samples.

Results

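The loci described here are the barley genes that start between 100 and 400 Mb on each of the 7 chromosomes. The same window was applied to each chromosome, whatever its length. They were taken by position, from the locus column of the deposited expression table. The bounds of the interval were chosen with earlier results of these data known. A gene model name that begins with HORVU was required, and the smallest start of the locus had to be at 100000000 or more and under 400000000. Of the 17771 loci in the table, 17036 carried such a name on chromosomes 1H to 7H, and 3980 of these fell in the interval. They held 12396 of the listed transcripts, and the 13056 loci outside the interval held 37218.

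Barley chromosomes are large, with genes crowded toward the ends and thinly spread around the centromere, where repeats such as retrotransposons fill most of the sequence. Crossovers are rare in that proximal part. Genes there tend to have longer introns, into which transposable elements have inserted. Genes embedded in such heterochromatic surroundings can still be transcribed.

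Leaf RNA had been sequenced from 2 wild-type and 2 transgenic samples of the cultivar Golden Promise. The transgenic plants constitutively expressed HvHSFA6a, a barley heat stress transcription factor (a protein family that binds heat shock elements in promoters and activates chaperone genes). The labels state neither the promoter of the transgene nor the number of lines, and they do not say whether the samples are from different plants. The transgene was not analysed here, since no row carries the name HvHSFA6a. The wild-type plants were not transformed. Day and night temperatures of 18 °C and 16 °C and a photoperiod of 16 hours are stated for all plants, and leaves were taken at 3 weeks. The transgenic samples are labelled as heated at 42 °C for 30 minutes and the wild-type samples as controls, so genotype and labelled treatment cannot be told apart. A chamber at 34 °C is named in the protocol of both groups. The table gives 1 FPKM value (fragments per kilobase of transcript, scaled to the mapped total) per group for each transcript, rounded to whole numbers. There is no value per sample, so differences have no replicate check, no SD can be given and the depth is unknown. FPKM is per length, so levels of different loci can be set side by side. Values of a locus below are sums over its transcripts. Of 8 plastid photosynthesis genes taken as leaf markers, 4 matched by symbol (rbcL, psbA, psbC and psbD), at 65 to 271 FPKM over both groups.

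Directions follow the column headers of the table. Its Up and Down words run opposite to those headers in all 1255 rows that have one. Its words for transcripts specific to a group follow the headers in 18638 of 18638 rows. If the headers were swapped, rises and falls below would trade places.

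Listed loci were sparser inside the interval than outside on all 7 chromosomes. It spans 300 Mb per chromosome, or 45.8% of the total length up to the last listed locus, and held 23.4% of the loci. The density of listed loci was 1.90 per Mb inside and 5.26 per Mb outside. It was lowest on 4H, with 392 loci or 1.31 per Mb against 4.90 outside, and highest on 1H and 7H, with 636 loci or 2.12 per Mb each. In bins of 50 Mb, the sparsest bin of each chromosome lay inside the interval. This bin was 200 to 250 Mb on 1H, 4H and 5H, 250 to 300 Mb on 6H, and 300 to 350 Mb on 2H, 3H and 7H. It held 43 loci on 4H, the fewest, and 61 on 6H, the most. The median gap to the next locus was 369654 bp inside and 105530 bp outside. Sparse loci are what the label "pericentromeric" would require, but the table marks no centromere. The sparse part also ran past the upper bound on 2H, where the bins from 400 to 500 Mb held 2.32 and 2.12 loci per Mb, and the bins from 100 to 200 Mb held 3.26 and 2.54. On 7H the same bins held 2.58 and 2.82, and 3.48 and 3.10. On 3H and 6H the bin from 400 to 450 Mb (2.20 and 2.30) was sparser than that from 100 to 150 Mb (2.70 and 2.94). On 1H, 4H and 5H it was denser. The same bounds also cover different shares of chromosomes that end between 558419426 bp (1H) and 767958541 bp (2H). The differences between the interval and the outside were not all seen across its bounds. The 195 loci in the first 10 Mb inside the lower bound had a median of 9 FPKM in wild type and 10 in transgenic leaves, and the 232 loci in the last 10 Mb before it had 8 and 7.5. At the upper bound, the last 10 Mb inside held 184 loci at 8 and 8 FPKM, and the first 10 Mb beyond held 196 loci at 10 and 8 FPKM, so the wild-type median there was higher outside. Median spans were 4466 bp just inside and 3954 bp just outside the lower bound, and 5793 bp just inside and 4466 bp just outside the upper one. Shares of loci with a called transcript (adjusted p under 0.05, as described with the calls) were 10.3% on both sides of the lower bound, and 5.98% inside and 8.67% outside at the upper bound.

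**Figure D1:**
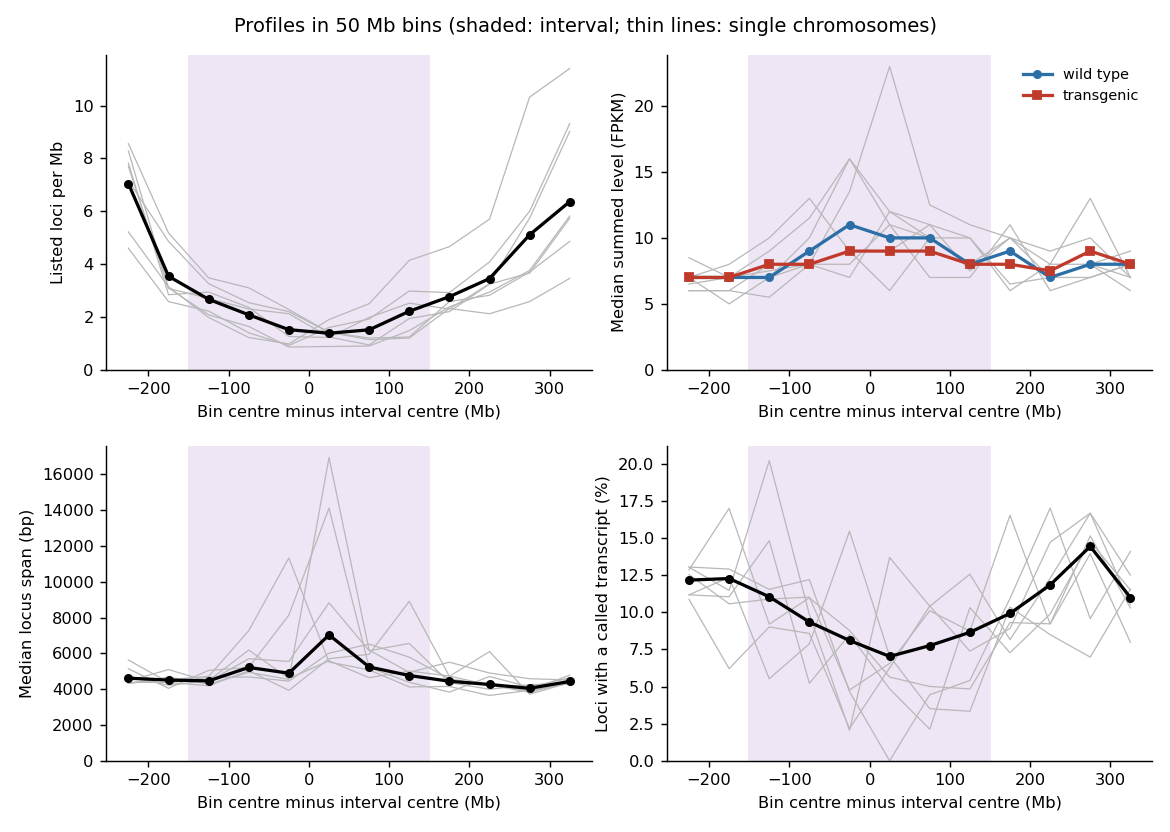
Density of listed loci, median summed level, median span and share of loci with a called transcript in 50 Mb bins over the 7 chromosomes, against the distance of the bin from the centre of the interval in Mb (thin lines, single chromosomes, wild type in the level panel; shaded band, the interval). Among the bins plotted, from 0 to 600 Mb, density is lowest at 1.38 loci per Mb just past the centre, where the median span is longest at 7034 bp and the share called lowest at 7.02%.

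Every transcript in the table is above 0 FPKM in at least 1 group, so genes silent in both are not described and the levels are those of listed loci. The median interval locus had 9 FPKM in wild-type leaves, against 7 FPKM outside, and 8 FPKM in transgenic leaves, the same as outside. In wild type the interval median was above the outside median on all 7 chromosomes. It ranged from 8.5 FPKM on 3H (7 outside) to 10 FPKM on 7H (7 outside). In the transgenic group it was above on 6 chromosomes and below on 4H, with 8 FPKM against 9. Medians of whole-number values move in steps, so these gaps of 1 to 3 FPKM are coarse. The order also depended on the number of transcripts summed. For loci with 1 transcript the wild-type median was 2 FPKM on both sides. It was 7 inside against 6 outside for 2 transcripts, and 12 against 11 for 3 to under 5. With 5 to under 8 transcripts it was lower inside, 19 against 21, and with 8 or more, 34 against 60. Transgenic medians of these last classes were also lower inside, 16 against 18.5 and 24 against 47. On the log2(FPKM + 1) scale the mean level was 3.42 inside and 3.27 outside in wild type, and 3.40 and 3.35 in transgenic leaves. By that mean, wild-type loci of the interval were above those outside on 6 of 7 chromosomes and transgenic ones on 5. The arithmetic mean over loci, to which a few very high loci contribute much, was 54.3 FPKM inside and 50.8 outside in wild type, and 56.6 and 51.5 in transgenic leaves. By chromosome it had no common order, with the interval above on 3 chromosomes in wild type and on 4 in transgenic leaves. In total the interval held 24.6% of the summed wild-type FPKM of named loci and 25.1% of the transgenic sum, close to its 23.4% share of loci. Loci are not replicates of a condition, so no test was made of these differences or of the other differences between the interval and the outside. Bulk leaf RNA also cannot tell fewer cells of a type from less RNA per cell.

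Very low and very high loci took smaller shares of the interval than of the outside. Loci listed at 0 FPKM in wild type made up 7.26% of the interval (289 loci) and 9.59% of the outside, with the lower share inside on all 7 chromosomes. In transgenic leaves the shares at 0 were closer, 5.25% and 5.91%, and on 5H the inside share was the higher. The quartiles did not narrow in wild type, where they were 2.75 and 26 FPKM inside and 2 and 24 outside. Loci at 2 FPKM or less in both groups were 18.6% inside and 20.6% outside, and the inside share was lower on 5 chromosomes. At the other end, 8.37% of the interval loci reached 100 FPKM in either group, against 9.69% outside. That share was lower inside on 6 chromosomes, with 7H as the exception (10.8% against 9.15%).

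Pooled over the chromosomes, the wild-type level within the interval was higher toward the centre. Wild-type medians in the 6 bins from 100 to 400 Mb were 7, 9, 11, 10, 10 and 8 FPKM. Transgenic medians in the same bins were 8, 8, 9, 9, 9 and 8 FPKM. The wild-type values thus formed a peak between 200 and 350 Mb, and the transgenic values were flatter. By chromosome, the interval bin with the highest wild-type median lay between 200 and 350 Mb on 2H to 7H. On 1H it was the bin from 150 to 200 Mb, at 13 FPKM, and the bin from 250 to 300 Mb was the lowest, at 6 FPKM.

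A small number of loci held much of the RNA of the interval. The locus of each chromosome with the highest mean over both groups, 7 loci in all, summed to 56123 FPKM in wild type, 25.9% of the interval's total, and to 57756 FPKM in transgenic leaves. The highest was on 4H from 166877530 to 166885401, with 17 transcripts that summed to 18880 FPKM in transgenic leaves and 22711 in wild type. The next by this mean was on 7H from 255548093 to 255549462, at 10928 and 11196 FPKM. In transgenic leaves alone another 7H locus was higher, at 11112 FPKM. On 2H from 371441830 to 371443795 a locus of 9 transcripts had 8641 FPKM in transgenic leaves and 8657 in wild type. The highest locus of 6H, from 149856196 to 149868725, had 9310 FPKM in transgenic leaves and 6007 in wild type, and none of its 15 transcripts was called. The table pairs none of these gene models with a product, and the gene table for the organism matched none of the HORVU names, so no function is given.

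The typical locus of the interval had a longer span. The span of a locus, from the smallest start to the largest end, had a median of 5065 bp inside and 4342 bp outside. It was longer inside on all 7 chromosomes, from 4763 bp against 4257 bp on 7H to 5518 bp against 4435 bp on 4H. The upper quartile was 10228 bp inside and 7768 bp outside. Transcripts were slightly longer inside, also on all 7 chromosomes, with a median longest transcript of 1804 nt inside and 1747 nt outside. The larger difference was in the part of the span beyond the longest transcript. This part holds the introns of a gene as well as flanking ends of other transcripts. Its median was 2849 bp inside and 2293 bp outside, again larger inside on all 7 chromosomes. Single-transcript loci have no ends of other transcripts of the same locus, though some share their range with another locus. Over all single-transcript loci the median span was 2972 bp inside and 2804 bp outside, or 1.06 times. Among those whose span exceeded their transcript, the median excess was 2638 bp for 846 loci inside and 2250 bp for 3176 loci outside, with median transcript lengths of 1240 and 1251 nt. Loci whose single transcript equalled the span, and so had no intron, were as frequent inside (290 of 1136, 25.5%) as outside (1097 of 4273, 25.7%).

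Very long loci were part of this difference. Spans of 20 kb or more were found for 488 loci of the interval, or 12.3%, and for 9.41% of loci outside, and the inside share was higher on all 7 chromosomes. In the bin from 250 to 300 Mb they reached 22.9%, against 6.86% in the bin from 100 to 150 Mb. The outermost bin, from 0 to 50 Mb, also had a high share at 14.1%, so long spans were not limited to the centre. Among loci of 20 kb or more the order was reversed, with a median span of 38268 bp inside and 84027 bp outside. The longest range in the interval was on 2H from 289374059 to 290107178, or 733120 bp, and it is shared by 3 named loci. One of them had 58 FPKM in transgenic leaves and 74 in wild type from transcripts of at most 1183 nt. Such shared ranges lengthen spans without lengthening genes. They applied to 451 loci inside and 1888 outside, and the median span stayed longer inside without them (1.18 times, against 1.17 times over all loci).

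Interval loci also had more transcripts listed, 3.11 per locus on average against 2.85 outside. The mean was higher inside on all 7 chromosomes, from 2.88 against 2.74 on 2H to 3.35 against 2.96 on 4H. Loci with a single transcript were 28.5% inside and 32.7% outside. Transcription start groups, as the table numbers them, differed little, with 2.08 per locus inside and 2.02 outside. Assembled transcripts that match no reference isoform (class code j) were 3.91% of the transcripts inside and 4.24% outside. The largest number of transcripts at one locus was 18 inside and 26 outside.

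**Figure D2:**
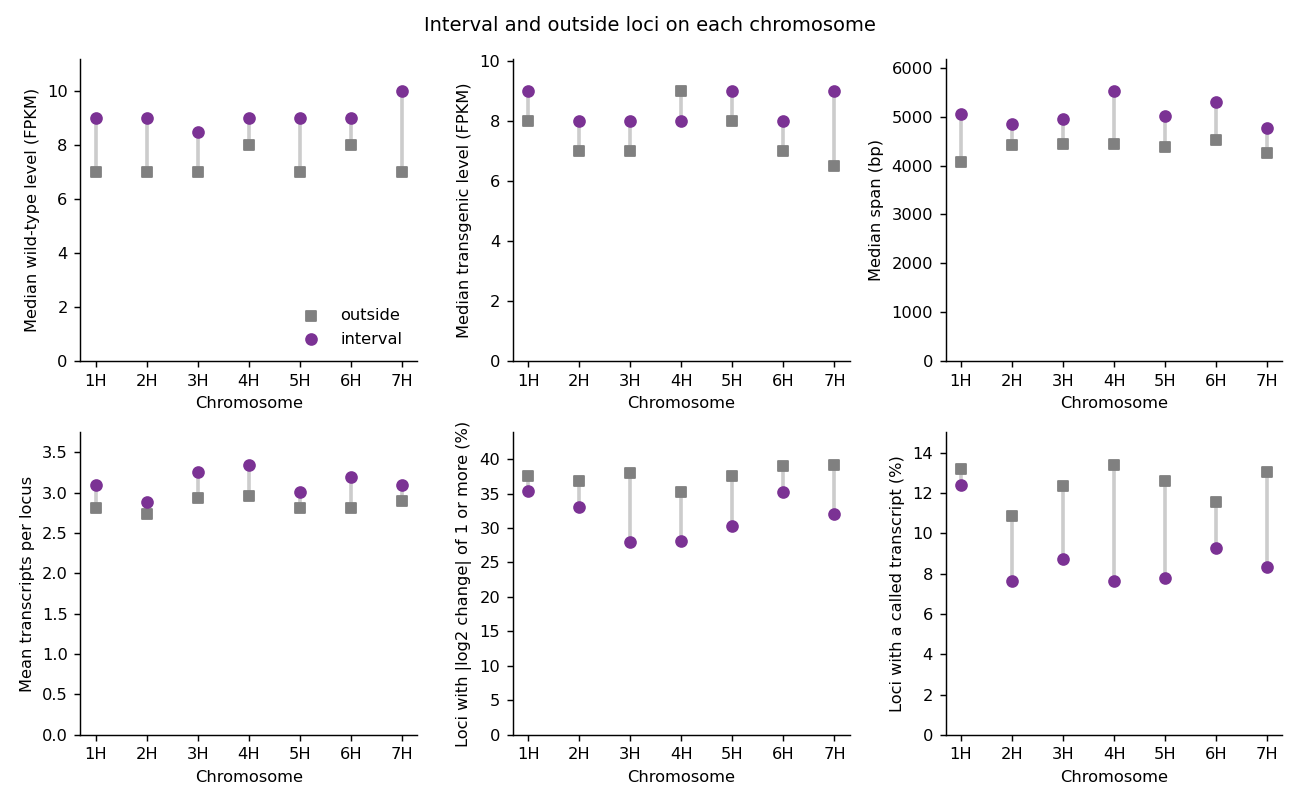
Median levels (FPKM), median span (bp), mean transcripts per locus, share of loci with an absolute log2(FPKM + 1) change of 1 or more, and share of loci with a called transcript, on each chromosome, for interval loci (circles) and loci outside (squares). Circles lie above squares on 7 of 7 chromosomes for wild-type level, span and transcripts, and below on 7 of 7 for both of these shares. The transgenic level of 4H is the exception, with 8 against 9 FPKM.

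Fewer loci of the interval than of the outside differed between transgenic and wild-type leaves. A transcript was called when the p-value in the authors' deposited table, adjusted by Benjamini-Hochberg over all 51141 transcripts, was under 0.05. In the interval 386 of 12396 transcripts were called, or 3.11%, against a background of 4.27% over all transcripts and 4.62% outside. Of these, 244 were higher in transgenic leaves (background 2.70% of all transcripts) and 142 lower (background 1.58%). A call was held by 356 loci, or 8.94% of the interval, against 11.6% of all named loci and 12.4% outside. The share was lower inside on all 7 chromosomes. The gap was narrowest on 1H, with 12.4% inside and 13.2% outside, and widest on 4H, with 7.65% (30 of 392 loci) inside and 13.4% outside. Called loci were higher in transgenic leaves in 221 cases, 5.55% of the interval against 7.24% of all named loci, and lower in 135, 3.39% against 4.34%. The share of higher loci was below the outside value on 6 chromosomes, and on 1H it was above, at 8.18% against 7.62%. No locus of the interval held calls in both directions. The balance of directions was the same inside and outside, with 63.2% of called transcripts higher in the interval and 63.3% outside.

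The size of the differences, which uses no p-value, gave the same order. On the log2(FPKM + 1) scale, 1273 interval loci (31.98%) differed by 1 or more in either direction, against 37.6% of loci outside, and the share was lower inside on all 7 chromosomes. The middle range of the differences, from the lower to the upper quartile, was 1.10 wide inside and 1.29 outside. The upper quartile was 0.49 inside and 0.71 outside. The lower quartile was -0.62 and -0.58, slightly farther from 0 inside, so the narrower range came from the upper side. The median change was -0.06 in the interval and 0 outside, below the outside on 5 chromosomes and 0 on 1H and 7H. This gap was 0 for single-transcript loci, for the highest transcript of each locus and for a central window scaled to chromosome length, and -0.12 for starts from 150 to 350 Mb. More interval loci were lower in transgenic leaves (2021, 50.8%) than higher (1564, 39.3%), whereas outside the shares were 46.0% and 44.0%. The share of higher loci was smaller inside on all 7 chromosomes. These tallies include loci of 1 or 2 FPKM, whose rounded values move in large steps, and they are no test.

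Pooled over the chromosomes, the share called was lowest near the centre of the interval. Over the 6 bins from 100 to 400 Mb it was 11.04%, 9.34%, 8.10%, 7.02%, 7.75% and 8.65%. The neighbouring bins outside had 12.3% before 100 Mb and 9.92% from 400 to 450 Mb, and the highest share of a bin that all chromosomes reach was 14.4%, from 500 to 550 Mb. The pooled median change followed the same course. It was -0.16, -0.19 and -0.12 in the 3 bins from 200 to 350 Mb and 0 in every other bin. By chromosome, the interval bin with the lowest share called lay between 200 and 350 Mb except on 2H and 7H. There it was the bin from 350 to 400 Mb, with 3.33% and 4.84%. On 2H the bin from 200 to 250 Mb had the highest share in the interval, 15.5%, and on 1H the bin from 250 to 300 Mb had 13.7%.

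The share called also differed between classes of level, of transcript number and of span, so the comparison was repeated within each class. The share was lower inside in 6 of 6 classes of level, 5 of 5 classes of transcript number and 5 of 5 classes of span. Among loci with a mean of 10 to 30 FPKM over the groups, 107 of 1060 were called inside (10.1%) and 509 of 3088 outside (16.5%). From 30 to 100 FPKM the shares were 13.1% and 19.1%. For single-transcript loci they were 10.3% (117 of 1136) and 14.4% (617 of 4273). With 8 or more transcripts they were 5.03% (10 of 199) and 12.7% (63 of 495). The narrowest gaps were for loci with 2 transcripts, at 11.5% and 12.1%, and for spans of 10 to 20 kb, at 5.48% and 5.81%. Spans under 2 kb had the highest shares, with 16.2% inside and 22.6% outside. Spans of 20 kb or more had 4.10% (20 of 488) inside and 7.08% outside.

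**Figure D3:**
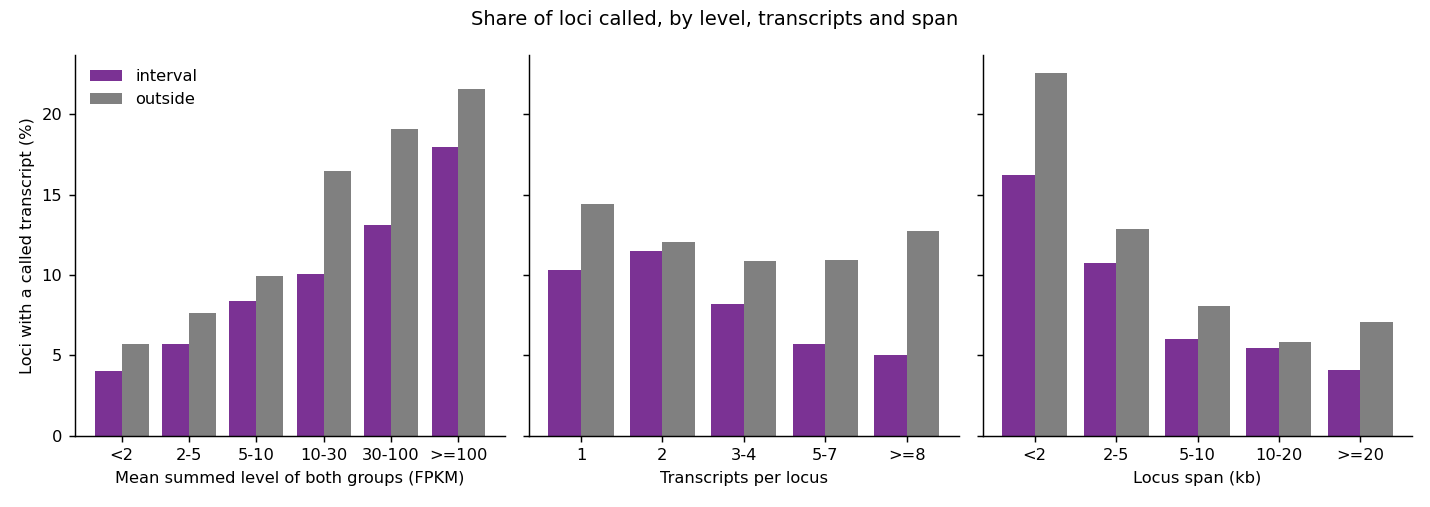
Share of loci with a called transcript (percent, bars from 0) in classes of mean level, of transcripts per locus and of span, for interval loci and loci outside. The interval bar is the lower one in each of the 16 classes, with the widest gap for 8 or more transcripts (5.03% against 12.7%).

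The largest rises were a pair of loci on 7H, 47433 bp apart. HORVU7Hr1G049370, on 7H from 173201884 to 173205718, has 6 transcripts. In transgenic leaves they had 711, 9, 4, 5, 508 and 525 FPKM, and in wild type 4, 0, 0, 0, 2 and 0. Its sums of 1762 and 6 FPKM gave a 294-fold difference, or 195-fold to 353-fold once rounding is allowed for. The transcripts at 711 and 508 FPKM were called (Benjamini-Hochberg adjusted p 0.00221; p 5e-05 in the authors' deposited table). The one at 525 and 0 FPKM was not (0.689, from 0.1703 in the authors' deposited table). The authors' p of 5e-05 is the smallest listed and is shared by 1157 transcripts, so it gives no ranking among loci that have it. HORVU7Hr1G049340, on 7H from 173152331 to 173154450, had 659 and 3 FPKM in a called transcript of 592 nt (0.00221) and 17 and 0 FPKM in another of 2009 nt. Summed, it was 225-fold higher (169-fold to 271-fold with rounding). Whether this pair of loci is similar in sequence, so that reads are shared between them, could not be examined.

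The other large rises were spread over 1H, 2H, 5H, 6H and 7H. On 5H from 370701552 to 370704468, a locus of 3 transcripts had 437 FPKM in transgenic leaves and 6 in wild type, 72.8-fold higher. Also on 5H, the locus from 361449454 to 361451747 had 695 and 31 FPKM (22.4-fold), and the one from 102721540 to 102730199 had 217 and 11 FPKM (19.7-fold). On 6H from 115444384 to 115446684 all 3 transcripts of a locus were called, and they summed to 267 and 13 FPKM (20.5-fold). A locus with a range of 174440 bp, on 7H from 134293959 to 134468398, had 69 and 2 FPKM (34.5-fold). The rises of loci near 0 in wild type are less exact. The locus on 1H from 321693715 to 321696272 had 37 and 1 FPKM, 37-fold with rounding bounds of 18-fold and 76-fold. Over all 182 called loci that were higher in sum, above 0 in both groups and at 5 FPKM or more in the higher, the median rise was 3.47-fold, and 72 exceeded 4-fold.

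The largest fall was at HORVU3Hr1G036870, on 3H from 208334818 to 208368758. In wild type its 7 transcripts had 1, 58, 1, 60, 9, 26 and 26 FPKM. In transgenic leaves the second had 1 FPKM and the others were listed at 0. The second, of 2748 nt, was called (adjusted p 0.00221, from 5e-05 in the authors' deposited table), and the other 6 were not. The sums of 1 and 181 FPKM make the locus 181-fold lower, with rounding bounds as wide as 39.4-fold and 369-fold. HORVU2Hr1G041110, on 2H from 201618824 to 201620734, had 5 and 1 FPKM in its transcripts in transgenic leaves and 90 and 17 FPKM in wild type. Both transcripts were called (0.00221 and 0.0456), and in sum the locus was 17.8-fold lower (15.1-fold to 21.6-fold with rounding).

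Falls were smaller than rises at the same rank. The third, on 7H from 157314595 to 157324101, had 3 FPKM in transgenic leaves and 37 in wild type, 12.3-fold lower. More abundant loci that fell were on 7H from 385861847 to 385872384, with 100 and 709 FPKM (7.09-fold), on 4H from 124877984 to 124880890, with 90 and 596 FPKM (6.62-fold), and on 6H from 359587382 to 359590244, with 41 and 261 FPKM (6.37-fold). The tenth fall was 10-fold, from 10 to 1 FPKM on 3H from 209056312 to 209058253, with rounding bounds of 4.5-fold and 22-fold. Over 122 called loci that were lower in sum, above 0 in both groups and at 5 FPKM or more in wild type, the median was 2.77-fold, and 27 exceeded 4-fold.

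**Figure D4:**
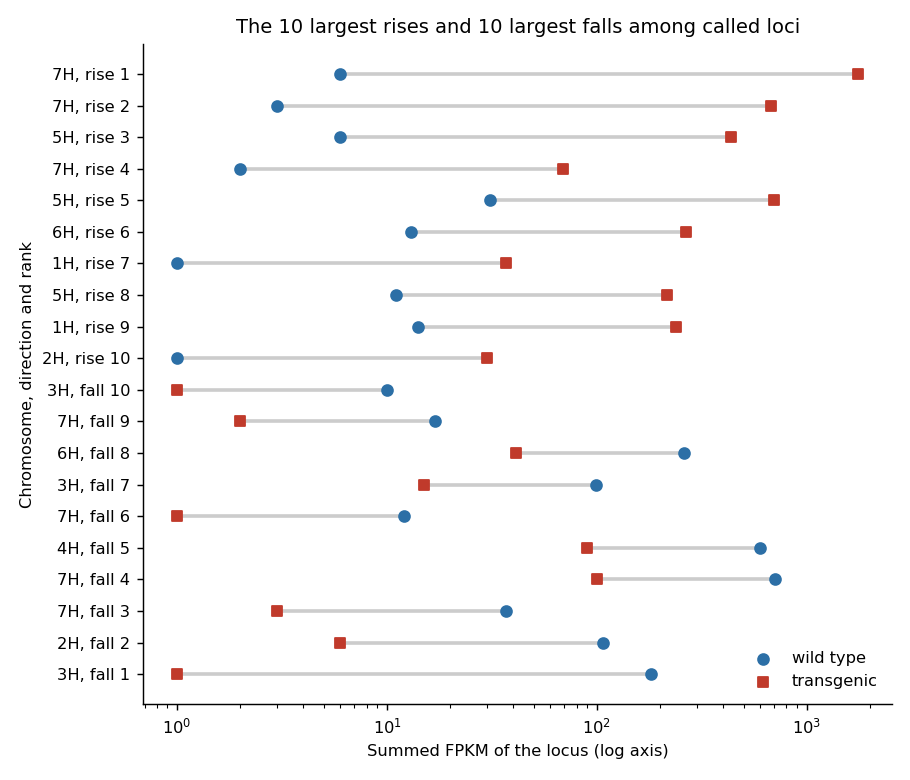
Summed FPKM in wild type (circles) and transgenic leaves (squares), on a log axis, for the 10 called loci of the interval with the largest rise and the 10 with the largest fall on the log2(FPKM + 1) scale. The rises reach from 30 against 1 FPKM to 1762 against 6 FPKM, and the falls from 1 against 10 to 1 against 181 FPKM.

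Called loci listed at 0 in a group numbered 36 in the interval, 26 at 0 in wild type and 10 at 0 in transgenic leaves. Only 3 had 20 FPKM or more in the other group, and all were at 0 in wild type. The locus on 6H from 160509375 to 160511083 had 41 FPKM in transgenic leaves from 1 transcript. On 6H from 398810937 to 398813371, near the upper bound, transcripts at 14 and 11 FPKM were both called. On 5H from 319885456 to 319887929, transcripts at 9 and 12 FPKM were both called. No fold is given against a listed 0. A further 16 called loci were above 0 in both groups and under 5 FPKM. Whether called or not, more loci were at 0 in wild type than in transgenic leaves. They numbered 289 against 209 inside and 1252 against 772 outside. Counts of called loci at 0 are not given for the outside, so these lists show nothing particular to the interval.

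At the most abundant locus, on 4H, the calls and the sum went in opposite directions. Its 2 called transcripts had 2 and 56 FPKM in transgenic leaves and were listed at 0 in wild type (adjusted p 0.0264 and 0.0491). The summed value was lower in transgenic leaves, at 18880 against 22711 FPKM. Its largest transcripts, at 8040 and 9782, 4461 and 4746, and 3527 and 5299 FPKM, were not called. This was the only called locus of the interval whose sum went against its call.

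**Figure D5:**
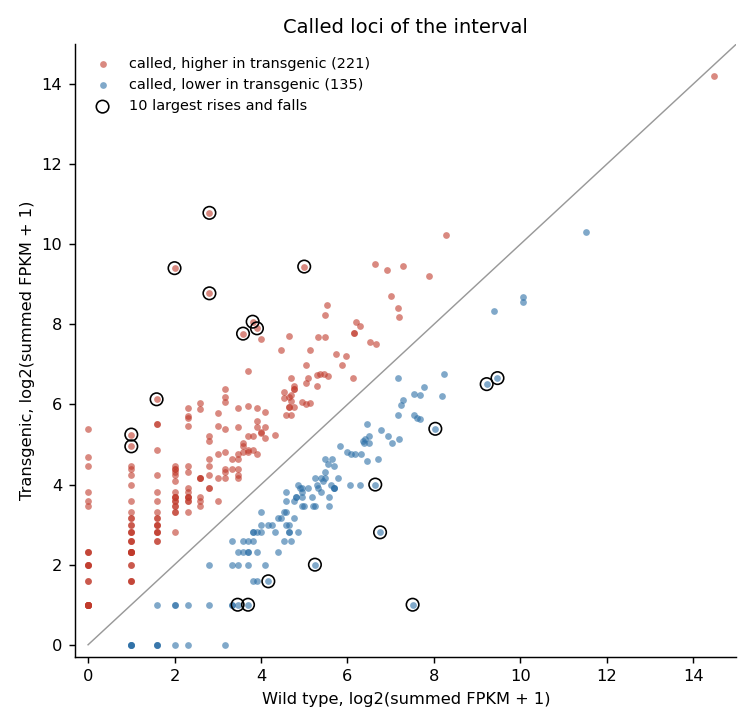
Summed level in transgenic leaves against wild type, both as log2(FPKM + 1), for the 356 loci of the interval with a called transcript. Points above the diagonal are higher in transgenic leaves (221 loci by their calls) and those below are lower (135), and open circles mark the 10 largest rises and falls. The point at the upper right just under the diagonal is the 4H locus with 18880 and 22711 FPKM.

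Runs of called neighbours were counted, but the number expected from the share of units called was not computed. These counts thus show nothing particular to the interval. With overlapping loci merged, its 3742 units included 356 with a call, 9.51%, and 12009 units outside included 1609, 13.4%. There were 13 runs of 2 or more neighbouring units higher in transgenic leaves and 9 of lower units, against 100 and 54 outside. Runs of 3 or more in the interval were all higher. The longest had 4 units, on 2H from 225382581 to 226796922, at 54 against 7, 349 against 150, 26 against 7 and 24 against 9 FPKM. It stretches over 1414 kb, because units are far apart there. A run of 3 units on 1H from 123663572 to 124704486 had 14 against 4, 11 against 4 and 13 against 3 FPKM. In the other run on 1H, within 132 kb, the units had 20 against 10, 113 against 12 and 238 against 14 FPKM, and the last is the ninth largest rise. Outside the interval 14 runs of 3 or more were found, 9 higher and 5 lower, of up to 5 units.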

How the data were processed

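Transcript levels of leaf RNA were taken from the table that the authors deposited, in which each transcript has 1 whole-number FPKM value per group, per the file headers. The FPKM values are whole numbers as deposited by the authors, so they were handled as a score, and no count model was used. The tools listed, per the submitters' processing notes, are STAR, Bowtie2, RSEM and DESeq2, with no version or role. The genome build and the way the 2 samples of each group were combined were not given in the sources used. The authors' p-values were used as deposited, since no test over samples can be made on 1 value per group. They were adjusted by the Benjamini-Hochberg method over all 51141 transcripts, and which test made them is not stated. They measure at most the spread between samples that may be technical replicates.

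Rows were grouped by locus identifier with Python 3.11.15 and pandas 2.3.3, and 6 rows of other names inside kept loci were dropped. No filter on low values was used, and the pseudocount was 1. Starts are printed with 1 added, since the span of 1387 single-transcript loci equals the transcript length only when the table's starts count from 0. Loci were named by rank of change among called loci above 0 in both groups and at 5 FPKM or more in the higher, 10 in each direction, of which 2 are given by ID. The highest and the longest locus of each chromosome, runs of 3 called neighbours and called loci at 0 against 20 FPKM or more were also considered. The interval and all lists were chosen with earlier results of these data known. The 13 rows of RNA names other than HORVU in the interval were not used. The adjustment and the grouping were tested on simulated data.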

Additional observations from a re-analysis of the deposited data

How the results depend on the processing

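Of the alternatives, those for the share of loci called, for loci with an unshared range and for one flank only were chosen after the data were seen. The wild-type level, span and number of transcripts of the interval relative to the outside stayed on the same side and within 1.5 times in every alternative tried for them, except that the wild-type medians were equal for single-transcript loci. Within the classes of 5 or more transcripts, described with the levels, the wild-type median was lower inside. The transgenic level ranged from 1 to 1.29 times. The gap in the share of loci called, -3.44 percentage points, ranged from -4.78 to -2.79. The 386 called transcripts became 1081 without adjustment and 200 for starts from 150 to 350 Mb. Under Holm adjustment they became 0, because the smallest p of 5e-05 cannot pass over 51141 transcripts. The gap in the share of transcripts called, -1.50 points, was -2.83 without adjustment, -2.97 among transcripts of 5 FPKM or more and 0 under Holm. The share of calls that were higher, 63.2%, was 49.95% without adjustment and 56.3% at 5 FPKM or more. The cause was not tested. The gap in median change, -0.06, was -0.12 for starts from 150 to 350 Mb and -0.11 at 5 FPKM or more. It was 0 for the central part of each chromosome scaled to its length, for single-transcript loci and for the highest transcript of a locus, so this shift depends on these settings. All 60 alternative values of the 20 named loci kept their direction, but they could not test it. A pseudocount of 0.1 or 5 in place of 1 cannot reverse a sign. The remaining values used a called transcript, and no named locus had a sum that went against its call. Only the size of the change could vary. In 8 of the 60 values it differed from the main result by at least 1 log2 unit. No paired analysis was possible because replicates have no values of their own, and none could be left out. Whole-number rounding and unknown depth limit loci of a few FPKM most.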
